A study of Homo sapiens with 64 samples.

Results

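HT55 and SW948 are established colorectal cancer cell lines, and the study places both in the colon cancer subtype it calls CCS1, a name that comes from its text and not from the sample labels. The comparison here set the cycling cells of HT55 against those of SW948, and asked how far 2 lines of one subtype resemble each other in the absence of treatment. Its members were all libraries labelled BULK from the 2 lines, 4 per line, which made 8 of the 64 libraries of the series. In both lines, cells were stained with CFSE, a dye that daughter cells share out when they divide, grown for 6 days as spheroids in suspension with bFGF and EGF, and sorted by FACS. Cells that kept the dye are called LRCs (label-retaining cells, labelled as dormant), and the remaining cycling cells are the non-LRCs described here. HT55 and SW948 carried no drug treatment or engineered allele in these labels. Line identity separated the 2 groups, and so did the running number that ends each sample title. The labels do not say what that number means. Each line stands for 1 tumor only, so a difference between them belongs to these lines and not to a class of tumors. Replicates are libraries of 1 line, and p-values measure the spread between those libraries.

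The intestinal crypt gives the frame for these data. Stem cells at the crypt base are maintained by Wnt signaling, and they divide into cells that become absorptive enterocytes or secretory goblet cells as they move away from it. In most colorectal cancers the Wnt pathway is permanently active, and the pathway then switches on its own feedback inhibitors along with stem cell genes. CDX2 and villin (VIL1) mark the intestinal identity of a cell, and KRT20 and mucins mark its differentiation.

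Both lines carried the markers of intestinal epithelium. The 8 intestinal markers summed to between 3518 and 3856 CPM (read counts on genes relative to the size of the library, scaled by TMM) in HT55 and between 3660 and 3871 CPM in SW948, and all 8 lay above 1 CPM in both lines. The 8 general epithelial markers summed to between 10740 and 15150 CPM in HT55 and between 4504 and 4837 CPM in SW948, and KRT8 and KRT18 held most of the gap. Markers of fibroblasts summed to at most 12.5 CPM in any library, and those of endothelial cells to at most 2.24 CPM. Leukocyte markers summed to between 37.5 and 72.5 CPM in HT55 and between 1205 and 1267 CPM in SW948, but nearly all of this was LYZ, which secretory cells of the gut also make. The defining leukocyte genes PTPRC, CD3E, MS4A1 and FCGR3A had 0 reads in all 8 libraries.

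Depth was even, at 13714485 to 16355750 reads on genes per library. Across the tested genes, Pearson's r of log2 CPM was 0.994 to 0.996 between SW948 replicates. It was 0.992 to 0.995 between HT55 replicates 1, 3 and 4, and 0.982 to 0.987 between these and HT55 replicate 2, which stood apart from its group. The median coefficient of variation of a gene over 4 libraries was 9.83% in HT55 and 6.06% in SW948. Mitochondrial genes took 8.15% to 11.2% of the reads in HT55 and 5.53% to 6.85% in SW948.

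The 2 lines differed at most of the genes they expressed. Of 13947 genes tested with edgeR's quasi-likelihood test, 10746 had a Benjamini-Hochberg adjusted p under 0.05 (77%), 5306 higher in HT55 and 5440 higher in SW948. A difference of at least 2-fold, the call used from here on, was found for 4912 genes, or 35.2% of those tested. HT55 was higher for 2343 of them (16.8% of the tested genes) and SW948 for 2569 (18.4%), and 597 and 729 respectively differed at least 8-fold. In 4832 of the 4912 the 4 libraries of one line did not overlap the 4 of the other. The calls were made on these same 8 libraries, so this count is no separate support for them. The share over all tested genes was not counted. The split between the lines depended on the scaling. With plain library size in place of TMM, the median log2 fold change of all genes moved from -0.01 to -0.26, and the share of 2-fold calls that were higher in HT55 moved from 47.7% to 35.0%. Without HT55 replicate 2 there were 5159 calls at 2-fold, and 4758 of the 4912 were among them.

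The same test gave a scale for these counts in the other lines of the series. DLD1 and HCT15 non-LRCs differed by 2-fold or more at 2115 of 13891 genes (15.2%). RKO and SW48 differed at 4650 of 13463 (34.5%), a count close to that between HT55 and SW948. No test compared these counts with each other.

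Wnt feedback genes and crypt base genes were split between the lines, with some of the largest differences in the data at each end. Of 28 tested members of this list, 13 were called higher in HT55 and 8 higher in SW948, with a median log2 fold change (HT55 minus SW948) of 0.94, against -0.01 for all tested genes. APCDD1, a membrane protein that blocks Wnt ligands (chr18:10454632-10489946, hg19), measured 599, 682, 656 and 620 CPM in the HT55 libraries and 0.623, 0.949, 0.346 and 0.57 CPM in those of SW948. NOTUM, a secreted enzyme that inactivates Wnt ligands, measured 730, 859, 1090 and 834 CPM in HT55 and 1.13, 1.63, 0.922 and 0.741 CPM in SW948. All 4 HT55 libraries lay far above all 4 SW948 libraries for both genes, and the fitted differences were 10.01 ± 0.16 (SE) and 9.65 ± 0.21 on the log2 scale (edgeR adjusted p = 1.48e-12 and 5.02e-12, n = 4 per line). PROX1, a transcription factor that Wnt signaling induces in colorectal tumors, followed them with means of 534 ± 132 (SD) and 3.75 ± 0.924 CPM. Named after their values were seen, as are the others marked so below, the feedback genes NKD1 (log2 fold change 5.70), AXIN2 (1.88) and RNF43 (1.06) and the stem cell regulator ASCL2 (3.02) were also higher in HT55.

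Other crypt base and Wnt-linked genes ran the opposite way. OLFM4, a secreted marker of human crypt base stem cells, measured 44.6, 37.4, 45.5 and 42.8 CPM in SW948 and was nearly absent from HT55, at 0 to 0.134 CPM (log2 fold change -8.85 ± 0.23, edgeR adjusted p = 2.12e-11). LEF1, a transcription factor through which Wnt signals act, averaged 36.3 ± 0.475 CPM in SW948 and 1.21 ± 1.26 CPM in HT55, where replicate 2 was the highest library at 3.05 CPM. Without that library the log2 fold change of LEF1 went from -4.91 to -5.89. CDCA7, a target of MYC and Wnt, averaged 191 ± 6.8 CPM in SW948 and 6.03 ± 1.01 CPM in HT55. The remaining calls toward SW948 in this list were TERT, DKK4 (log2 fold change -2.79), PROM1 (-2.76), RGMB (-1.97) and CD44 (-1.64) (named after their values were seen).

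The stem cell markers that the study follows lay between these extremes. LGR5, the receptor that marks crypt base stem cells, measured 125, 72.1, 139 and 102 CPM in HT55 and 31, 31.2, 31.4 and 28.8 CPM in SW948, a 3.58-fold difference (log2 1.84 ± 0.17, edgeR adjusted p = 7.23e-07). PTK7, the surface receptor the study used to sort stem-like cells, averaged 554 ± 111 CPM in HT55 and 122 ± 7.82 CPM in SW948 (4.56-fold, adjusted p = 1.79e-08). No library of one line overlapped the other for either gene. EPHB2, a receptor of the lower crypt, differed by only 0.31 ± 0.09 on the log2 scale (adjusted p = 0.00851), which is under 2-fold and did not pass the test with plain library size (0.06). MYC averaged 205 ± 56.9 CPM in HT55 and 307 ± 18 CPM in SW948 (log2 fold change -0.58, adjusted p = 0.00439).

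**Figure D1:**
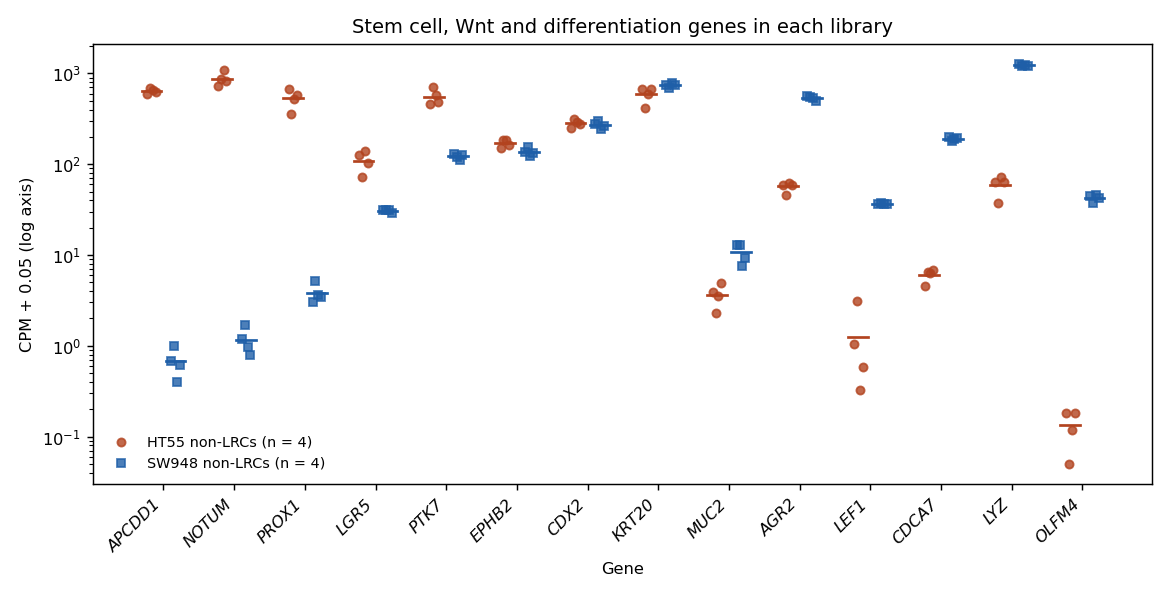
CPM plus 0.05 (log axis) of 14 Wnt, stem cell and differentiation genes in the 4 HT55 (circles) and 4 SW948 (squares) non-LRC libraries, with the mean of each group as a bar. APCDD1 and NOTUM reach 599 CPM or more in every HT55 library and at most 1.63 CPM in every SW948 library, OLFM4 lies at 0.134 CPM or less in HT55, and CDX2 and EPHB2 lie at nearly the same height in both lines.

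Genes of intestinal identity differed less between the lines than many differentiation genes. CDX2 measured 251, 315, 291 and 280 CPM in HT55 and 280, 298, 244 and 264 CPM in SW948, and the ranges overlapped (log2 fold change 0.07 ± 0.09, edgeR adjusted p = 0.499). The adhesion protein CDH17 (983 ± 54.8 and 1040 ± 58.5 CPM), the microvillus protein VIL1 (918 ± 38.1 and 836 ± 26 CPM) and the surface protein EPCAM (1390 ± 26.8 and 1240 ± 68.4 CPM) also did not pass the test. VIL1 and EPCAM did pass it with DESeq2 (0.14 and 0.18 on the log2 scale) and without HT55 replicate 2 (0.16 and 0.17), and EPCAM also without SW948 replicate 3 (0.20) and with all 24 non-LRC libraries (0.17). With plain library size CDX2, VIL1 and EPCAM lay slightly lower in HT55 (-0.18, -0.11 and -0.08), and CDH17 passed the test at -0.33. KRT20, a keratin of differentiated colonocytes, averaged 587 ± 118 CPM in HT55 and 742 ± 36.4 CPM in SW948, with a difference that was small (-0.34 ± 0.13) and did not pass the test without HT55 replicate 3 or without SW948 replicate 1, 3 or 4 (-0.35 to -0.32). Of 20 tested intestinal transcription factors, 4 were called higher in HT55 (2 with plain library size) and 6 higher in SW948. ISX, which controls vitamin A uptake in enterocytes, was 5.46-fold higher in HT55. ONECUT2 and FOXA1, factors of foregut and secretory epithelium, were low in both lines and higher in SW948 (3.29 and 2.9 CPM, against 0.168 and 0.169 CPM in HT55).

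More absorptive cell genes were called toward HT55 than toward SW948, and goblet and secretory genes were split. Of 23 tested enterocyte and colonocyte genes, 10 were called higher in HT55 and 4 higher in SW948 (median log2 fold change 0.86). SLC26A3, the chloride and bicarbonate exchanger of the colon surface, measured 73.3, 445, 87 and 72.3 CPM in HT55 and at most 1.5 CPM in SW948, so its mean in HT55 rested largely on replicate 2. Its log2 fold change was 7.49 with that library and 6.37 without it. SLC9A3, a sodium and proton exchanger, averaged 69.6 ± 32.1 CPM in HT55 and had 3 reads in all 4 SW948 libraries, a ratio of 1570 with a counting interval of 537 to 7620. The opposite was seen for CA2, a carbonic anhydrase of colonocytes, with 690 reads over the SW948 libraries and 1 over those of HT55 (ratio 606, counting interval 108 to 24000). FABP2, a fatty acid binding protein of enterocytes, had 0 reads in HT55 and averaged 2.22 CPM in SW948, at least 43.9-fold higher with HT55 set to a floor of 3 reads over 4 libraries. The same floor stands behind each "at least" below. Ratios and floors cover counting error only.

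Of 18 tested goblet and secretory genes, 6 were called higher in HT55 and 9 in SW948 (median -0.77). LYZ, the antibacterial enzyme lysozyme, measured 1270, 1210, 1230 and 1210 CPM in SW948 and 63.3, 37.1, 71.6 and 63.1 CPM in HT55 (log2 fold change -4.39 ± 0.17, edgeR adjusted p = 7.3e-10). AGR2, which folds mucins in the endoplasmic reticulum, averaged 539 ± 32.6 CPM in SW948 and 56.8 ± 7.76 CPM in HT55, a 9.48-fold difference. The study took AGR2 as a correlate of Wnt activity. Between these lines AGR2 ran opposite to LGR5 and PTK7 and the same way as LEF1 and OLFM4. MUC2, the secreted mucin of goblet cells, was low in both lines, at 10.7 ± 2.66 CPM in SW948 and 3.62 ± 1.11 CPM in HT55 (2.93-fold). REG4, a lectin of secretory cells, averaged 10.9 CPM in SW948 and 0.561 CPM in HT55. The secretory genes higher in HT55 included the membrane mucin MUC1 (15.2 and 2.91 CPM) and the Notch ligand DLL4 (40.5 ± 9.66 and 1.26 ± 0.75 CPM). Also called higher in HT55 were KLF4 (116 and 44.1 CPM), TFF2 (5.86 and 1.58 CPM), AGR3 (9.59 and 4.45 CPM) and MUC5B (2.26 and 0.262 CPM). TFF3 did not pass the test, at 189 ± 23.2 and 188 ± 24.7 CPM. KLF4, TFF2, AGR3 and TFF3 were named after their values were seen. The calls toward SW948 included SPINK4, SPDEF and RETNLB, at 2.68 CPM or less in SW948.

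Mucin and CEACAM genes, a list of membrane-bound and secreted proteins, were mostly higher in HT55. Of 15 tested, 11 were called higher in HT55 and MUC2 alone higher in SW948 (median 1.17). With plain library size 7 were called higher in HT55, and the median was 0.92. CEACAM5, the carcinoembryonic antigen used as a blood marker of colorectal cancer, measured 2500, 2470, 2130 and 2660 CPM in HT55 and 163, 151, 182 and 160 CPM in SW948 (14.9-fold, edgeR adjusted p = 2.94e-11). CEACAM6 averaged 199 ± 35.1 and 10.4 ± 1.2 CPM. These genes are near copies of one another, and reads that matched several places were not counted, so their levels are uncertain.

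In the Hedgehog pathway, which the study examined as a route of itraconazole, the ligand SHH and the receptor PTCH1 were higher in HT55 while the transcription factors were at the limit of detection in both lines. Hedgehog ligands bind PTCH1 and thereby release SMO, which acts through the GLI factors. SHH measured 138, 142, 145 and 140 CPM in HT55 and 8.61, 9.55, 7.38 and 6.27 CPM in SW948 (17.8-fold, edgeR adjusted p = 2.94e-11). IHH, a further ligand, was under 2-fold lower in HT55, at 82.5 CPM against 108 CPM (log2 fold change -0.39, edgeR adjusted p = 0.0367, named after its value was seen). PTCH1, itself a target of the pathway, averaged 249 ± 9.3 and 52.8 ± 3.65 CPM (4.73-fold, adjusted p = 1.08e-10). SUFU, which holds GLI factors inactive, averaged 13.8 ± 1.31 and 13.6 ± 0.738 CPM and did not pass the test (log2 fold change 0.02 ± 0.10, and -0.23 with plain library size). GLI3 had 0 reads in all 8 libraries, GLI1 had 2 reads, both in 1 SW948 library, and the mean CPM of GLI2 and SMO was at most 0.121 in either line. The study reports no GLI gene expressed in HT55 and GLI1 alone as detectable in SW948. It does so for its itraconazole experiments, not for these sorted spheroid cells. KIF7 and CDON, a kinesin of the cilium and a co-receptor, were higher in SW948 (9.14 and 18.4 CPM, against 0.729 and 4.62 CPM). Of 8 tested members, 4 were called higher in HT55 and 2 in SW948, and 10 of the 18 listed genes were too low to test.

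Notch, BMP and TGF-beta genes leaned toward HT55. Of 21 tested Notch pathway genes, 11 were called higher in HT55 and 2 in SW948 (median 1.06). DLL4 was 32.8-fold higher in HT55, while the ligand DLL1 was 3.46-fold higher in SW948. HEY1, a target of Notch, was 27.2-fold higher in HT55 but low in both lines (3.04 and 0.106 CPM). The list members HES1 (146 ± 81.5 and 50.9 ± 6.33 CPM) and NRARP (58.2 and 31.4 CPM) were more abundant. Named after their values were seen, they were higher in HT55 by 1.52 and 0.89 on the log2 scale. Without HT55 replicate 2, 4 Notch genes were called higher in SW948. Another target, HES5, had 0 reads in SW948 but varied from 0.956 to 8 CPM among the HT55 libraries. Of 26 tested BMP and TGF-beta genes, 14 were called higher in HT55 and 4 in SW948 (median 1.12). INHBB, the beta subunit of activin B, measured 125, 116, 150 and 131 CPM in HT55 and at most 0.271 CPM in SW948 (log2 fold change 9.85 ± 0.19, edgeR adjusted p = 3.26e-12). BAMBI, a decoy receptor, averaged 206 ± 55.7 and 3.84 ± 0.217 CPM.

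GREM1, a secreted BMP antagonist, was the strongest of the 4 genes in the other direction. It measured 124, 135, 153 and 134 CPM in SW948 and 0.46, 1.32, 0.478 and 0.403 CPM in HT55 (log2 fold change -7.68 ± 0.20, edgeR adjusted p = 2.62e-11). BMP2 and TGFB1 were 7.07-fold and 5.32-fold higher in SW948. TGFBI, an extracellular matrix protein named for its induction by TGF-beta, was among the most abundant transcripts of HT55 at 7050, 5220, 7490 and 7180 CPM, against 725 to 845 CPM in SW948.

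Of 26 tested EGF receptor, ligand and ERK feedback genes, 10 were called higher in HT55 and 6 in SW948 (median 0.62). The ERK phosphatase DUSP5 averaged 72.8 ± 12.1 CPM in HT55 and 1.67 ± 0.366 CPM in SW948, and the ligand EREG averaged 20.4 ± 6.19 and 117 ± 17.5 CPM. The ligands AREG and EGF were also higher in SW948, at 5.33 and 1.08 CPM against 1.25 and 0.188 CPM. The growth medium itself held EGF in both lines.

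Genes of cell architecture separated the lines in families. No tested keratin was called higher in SW948, and 8 of 14 were called higher in HT55 (median 1.86). Among the 8, KRT6A, KRT40, KRT74 and KRT83 averaged at most 3.7 CPM in HT55 and at most 0.0622 CPM in SW948 (KRT83 named after its value was seen). They passed the count filter through HT55 alone, so no call toward SW948 was open to them. KRT8 and KRT18, which pair in simple epithelia, averaged 5620 ± 1250 and 3540 ± 701 CPM in HT55 and 804 ± 66.5 and 548 ± 44.3 CPM in SW948 (6.99-fold and 6.46-fold). Integrin and laminin genes gave 14 calls toward HT55 and 3 toward SW948 among 25 tested (median 1.10), and 6 toward SW948 with plain library size. The laminin chain LAMA2 was 61.5-fold higher in HT55 and the collagen receptor subunit ITGA2 7.8-fold, whereas the laminin chain LAMB1 averaged 59.9 ± 11.2 CPM in HT55 and 474 ± 25.6 CPM in SW948. Among tight junction claudins, CLDN2, which forms a pore for cations, measured 233, 229, 210 and 222 CPM in SW948 and 0 to 0.277 CPM in HT55 (log2 fold change -10.61 ± 0.20, edgeR adjusted p = 3.26e-12), while CLDN1 was 3.49-fold higher in HT55.

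The list of epithelial-mesenchymal state genes was mixed. Of 13 tested, 6 were called higher in HT55 and 2 in SW948, with a median of 0.03 that became -0.21 with plain library size. TWIST1, a mesenchymal transcription factor, had 0 reads in SW948 and averaged 2.55 ± 0.885 CPM in HT55, at least 56.9-fold higher. S100A4 averaged 97.5 ± 8.36 and 5.3 ± 0.356 CPM. FN1 and GRHL1, a matrix protein and an epithelial factor, were higher in SW948 (4.65 and 39.9 CPM, against 0.204 and 2.14 CPM). Of 9 tested metalloproteinases and inhibitors, 4 were called higher in HT55, among them the inhibitors TIMP1, TIMP2 and TIMP3, and 1, TIMP4, was called higher in SW948. With plain library size 2 were called higher in HT55. Without HT55 replicate 2 the log2 fold changes of TIMP3 and TIMP4 went from 4.72 to 3.95 and from -2.33 to -3.14.

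HOX genes record the position of a cell along the body axis, and 12 of 21 tested were called higher in HT55 against 2 in SW948 (median 1.49). HOXD9 measured 55.7, 16.3, 53.2 and 61.6 CPM in HT55 and had 1 read in the 4 SW948 libraries (ratio 3160, counting interval 567 to 125000). Its neighbor HOXD8 had 0 reads in SW948 and averaged 2.85 ± 0.659 CPM in HT55. HOXB13, the hindmost gene of its cluster, ran the other way at 2.57 ± 1.35 and 12.4 ± 1.35 CPM.

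All 6 tested metallothioneins were called higher in HT55, with log2 fold changes from 1.10 to 7.94 and a median of 5.01. With plain library size, or without HT55 replicate 2, 5 of the 6 were called. Metallothioneins are small proteins that bind zinc, copper and cadmium, and their promoters are known for metal response elements that the factor MTF1 binds. MT2A (chr16:56642496-56643409, hg19) measured 37.4, 86.5, 75.8 and 54.4 CPM in HT55 and 1.08, 1.56, 0.865 and 0.968 CPM in SW948 (log2 fold change 5.84 ± 0.31, edgeR adjusted p = 7.32e-09). MT1E averaged 38.6 ± 18.9 and 0.154 ± 0.0915 CPM, and MT1G 18.7 ± 9.02 and 0.317 ± 0.236 CPM. The SW948 libraries lay below those of HT55 for all 3 genes, and HT55 replicate 2 was the highest library for each. In the other 4 lines MT2A averaged 42.9 to 871 CPM, so SW948 was the line that stood apart for it. These genes are near copies, and their counts are uncertain for the same reason as those of the CEACAM genes. The stretches before the start sites of MT2A and MT1X (log2 fold change 3.96) are shown because both hold several copies of the metal response core. Capitals mark TGCGCNC or TGCACNC on either strand, each stretch runs over 250 bases up to the start site, and the sequences are those of RefSeq on GRCh38.p14.
MT2A (chr16:56608334-56608583, plus strand): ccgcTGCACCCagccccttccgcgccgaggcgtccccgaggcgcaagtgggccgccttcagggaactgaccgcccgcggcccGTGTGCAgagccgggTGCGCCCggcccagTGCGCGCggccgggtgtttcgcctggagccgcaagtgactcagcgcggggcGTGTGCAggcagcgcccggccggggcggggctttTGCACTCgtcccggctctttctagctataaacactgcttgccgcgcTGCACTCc
MT1X (chr16:56682220-56682469, plus strand): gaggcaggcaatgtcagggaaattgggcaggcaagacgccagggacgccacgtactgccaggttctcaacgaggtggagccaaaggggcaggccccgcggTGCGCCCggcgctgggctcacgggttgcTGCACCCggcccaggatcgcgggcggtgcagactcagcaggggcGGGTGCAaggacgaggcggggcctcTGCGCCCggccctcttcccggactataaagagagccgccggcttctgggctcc
The core occurred 7 times in the MT2A stretch and 4 times in that of MT1X. Of all 35116 RefSeq windows from 250 bases before to 50 after a start site, 29.6% held it at least 1 time. Windows of only 2 of the 6 metallothioneins were found, so nothing is said of the others.

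Cell cycle genes ran against HT55. Of 42 tested S-phase genes, 24 were called higher in SW948 and 0 in HT55 at 2-fold, and 35 were lower in HT55 with the fold ignored (median -1.10, and -1.35 with plain library size). GMNN, which restrains the licensing of replication origins, averaged 59.3 ± 4.91 CPM in SW948 and 7.39 ± 0.974 CPM in HT55 (8.02-fold, edgeR adjusted p = 3.08e-10). CENPU, a centromere protein, was 6.25-fold higher in SW948. Named after their values were seen, PCNA, the sliding clamp of DNA polymerase, was lower in HT55 by -1.63 on the log2 scale, and the helicase subunits MCM4, MCM7, MCM5 and MCM6 by -1.86 to -1.42. DTL, GINS2, HELLS, CDC6 and NASP stayed within 2-fold, from -0.63 to -0.28 (named after their values were seen).

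E2F factors are known to switch on S-phase genes, so the start sites were searched for the E2F site TTTCCCGC or TTTGGCGC on either strand. Of 32 S-phase genes with a window, 13 held the site, against 2.27% of all 35116 windows. It was present in 5 of the 15 genes called higher in SW948 and in 8 of the 17 that were not called at 2-fold, so genes with and without these letters were found on both sides. PCNA and MCM6 are shown as called genes that hold it, in capitals, over 250 bases up to the start site (RefSeq, GRCh38.p14).
PCNA (chr20:5126623-5126872, minus strand): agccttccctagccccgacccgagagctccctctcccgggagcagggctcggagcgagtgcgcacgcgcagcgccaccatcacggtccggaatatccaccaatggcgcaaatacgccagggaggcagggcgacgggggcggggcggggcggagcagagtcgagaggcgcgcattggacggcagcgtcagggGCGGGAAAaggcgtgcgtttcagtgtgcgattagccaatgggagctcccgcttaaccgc
MCM6 (chr2:135876444-135876693, minus strand): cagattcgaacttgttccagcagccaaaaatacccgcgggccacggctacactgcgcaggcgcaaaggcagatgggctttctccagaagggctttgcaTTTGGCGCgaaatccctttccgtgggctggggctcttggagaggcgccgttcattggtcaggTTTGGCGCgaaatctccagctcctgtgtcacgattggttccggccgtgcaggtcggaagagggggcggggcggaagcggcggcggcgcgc
The same search with the core of the sterol response element (TCACNCCAC) found it in 1 of 17 cholesterol genes and 1.13% of all windows, and with a TCF and LEF site (CTTTGAT or CTTTGTT) in 1 of 16 Wnt list genes and 7.61% of all windows.

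Of 54 tested G2/M genes, 16 were called higher in SW948 and 1 in HT55 (median -0.70), or 25 and 0 with plain library size. The share called at 2-fold, 31.5%, was below the 35.2% of all tested genes. With the fold ignored, 41 were lower in HT55 and 4 were higher. AURKB, a kinase of mitosis, averaged 54.2 ± 4.26 CPM in SW948 and 12.6 ± 2.53 CPM in HT55 (4.31-fold), and CDCA2 and PIMREG were 4.12-fold and 3.69-fold higher in SW948. The single call in the other direction was MKI67, the gene of the proliferation marker Ki-67, which measured 274, 241, 245 and 275 CPM in HT55 and 127, 120, 125 and 144 CPM in SW948 (log2 fold change 1.01 ± 0.08, edgeR adjusted p = 2.13e-07). In sorted bulk populations, a smaller share of cycling cells and less RNA per cell cannot be told apart.

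CDKN2A, which encodes p16 and ARF, measured 33.9, 37.3, 29.9 and 34.7 CPM in SW948 and 0.592, 0.693, 0.751 and 0.807 CPM in HT55 (47.3-fold, edgeR adjusted p = 2.09e-11). The study followed CDKN1C and CDKN2D as markers of senescence, and untreated HT55 held more of both, at 16.4 ± 4.37 and 9.65 ± 1.13 CPM against 4.75 ± 0.692 and 2.91 ± 0.494 CPM in SW948 (3.45-fold and 3.33-fold). Of 19 tested cyclins, CDKs and inhibitors of G1, these were the 2 called higher in HT55, and 5 were called higher in SW948. The share called, 36.8%, was near the 35.2% of all tested genes.

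Single antigen presentation genes differed between the lines. B2M, the constant chain of MHC class I, averaged 1580 ± 106 CPM in HT55 and 355 ± 30 CPM in SW948 (4.45-fold, edgeR adjusted p = 9.33e-10), HLA-B was 5.21-fold higher in HT55, and NLRC5, the activator of class I genes, was 4.08-fold higher. The immunoproteasome subunit PSMB9 was 2.66-fold higher in SW948. Of 17 class I genes tested, 4 were called higher in HT55 and 1 in SW948 (median 0.66), or 29.4% against 35.2% of all tested genes. HLA genes are near copies that also vary between people, so their counts are uncertain. Class II genes were nearly silent, with 3 of 11 tested. HLA-DQB1 had 0 reads in HT55 and averaged 1.91 CPM in SW948.

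Interferon-stimulated genes were divided as well. Of 27 tested, 6 were called higher in HT55 and 10 in SW948 (median -0.40). IFI27 averaged 55.6 ± 2.24 CPM in SW948 and 1.06 ± 0.19 CPM in HT55, and MX1 was 15.4-fold higher in SW948. IFI6 averaged 13.8 ± 3.21 CPM in HT55 and 0.393 ± 0.138 CPM in SW948, and OAS1 was 3.34-fold higher in HT55. Among 20 chemokine and NF-kB target genes, 8 were called higher in SW948 and 3 in HT55 (median -0.77). The cytokine IL32 averaged 52.2 ± 3.5 CPM in SW948 and 4.23 ± 1.1 CPM in HT55, and the adhesion molecule ICAM1 1.34 and 11.3 CPM.

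Several abundant metabolic genes differed between the lines. The study treated both lines with itraconazole, a drug known to disturb cholesterol traffic. Of 24 cholesterol synthesis genes, all tested, 9 were called higher in SW948 and 0 in HT55 (median -0.68), or 7 and 1 without HT55 replicate 2. The share called at 2-fold, 37.5%, was near the 35.2% of all tested genes. With the fold ignored, 16 were lower in HT55 and 2 were higher. DHCR7, the last enzyme of the pathway, averaged 441 ± 37.4 CPM in SW948 and 136 ± 24.1 CPM in HT55 (3.25-fold), and FDFT1, the first enzyme committed to sterols, 911 ± 26.9 and 310 ± 49.8 CPM. Glycolysis genes LDHA and ALDOA, and HDLBP, an RNA-binding protein, were among the most abundant transcripts called higher in SW948 (2.95-fold, 2.19-fold and 2.87-fold). The mitochondrial genes MT-ND4, MT-CYB, MT-ND5 and MT-ND2 led in HT55 by 2.09-fold to 2.67-fold, with replicate 2 the highest library for each. Copies of mitochondrial genes lie in the nuclear genome, which makes these counts uncertain.

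Drug metabolism genes gave 14 calls toward SW948 and 7 toward HT55 among 32 tested. GSTT1, a glutathione transferase, measured 35.9, 34.4, 30.7 and 36.5 CPM in SW948 and 0 to 0.132 CPM in HT55, while the other 4 lines averaged 26.2 to 35.9 CPM. AKR1B10, an aldo-keto reductase, averaged 51 ± 5.62 CPM in SW948 and at most 0.532 CPM in every other line. CYP2W1, a cytochrome P450 of colorectal tumors, measured 29.5, 113, 44.7 and 37.8 CPM in HT55 and 0.573 ± 0.145 CPM in SW948.

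Of 13 ABC transporters that export drugs and lipids, 4 were called higher in HT55 and 5 in SW948, and their median of 0.10 was -0.14 with plain library size. ABCC2, an exporter of conjugates, averaged 149 ± 13.8 and 0.572 ± 0.206 CPM, a 260-fold difference toward HT55. ABCC4 averaged 1.82 ± 0.694 CPM in HT55 and 71 ± 3.83 CPM in SW948, and ABCB1, the multidrug exporter, 4.89 ± 0.57 and 37.1 ± 5.64 CPM. The cholesterol exporters ABCA1 and ABCG1 were 19.7-fold and 7.17-fold higher in HT55.

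**Figure D2:**
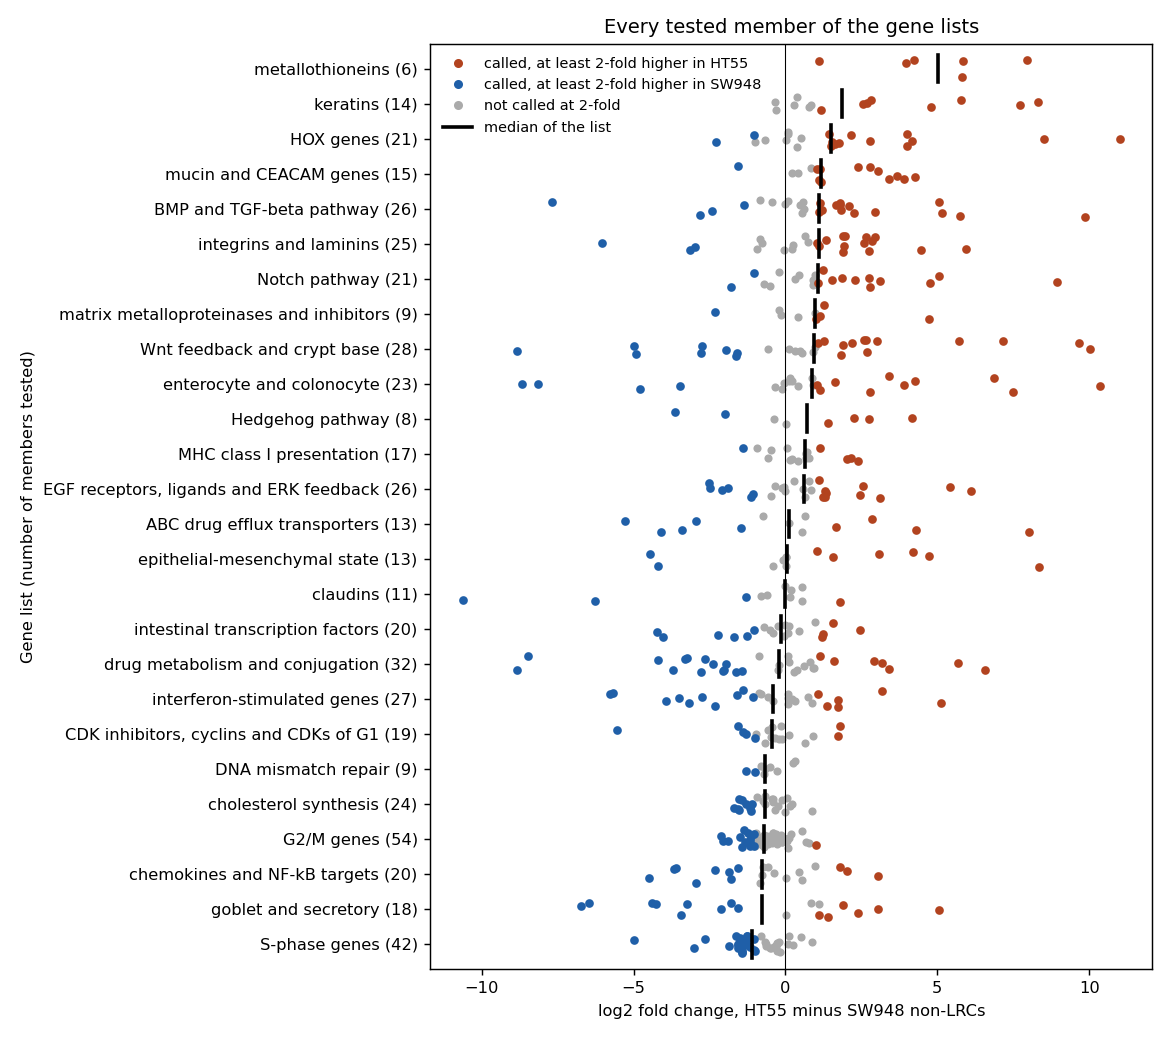
Log2 fold change (HT55 minus SW948 non-LRCs, horizontal axis) of every tested member of 26 gene lists (rows, number of members in brackets), with red and blue points for members called at 2-fold or more toward HT55 and SW948, gray points for the rest and a black bar at the median of each list. Metallothioneins lie wholly to the right at a median of 5.01, S-phase genes mostly to the left at -1.10, and the Wnt list reaches from -8.85 to 10.01.

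Some genes were found in 1 line only. With at most 3 reads over the 4 libraries of the other line, 189 genes were detected in HT55 alone and 201 in SW948 alone. Of these, 34 protein-coding genes in HT55 and 33 in SW948 reached 10 CPM. With 0 reads in the other line, 71 and 73 genes remained. By fitted fold change the first 4 in HT55 were CACNA1H, a calcium channel subunit with 36.7 ± 5.01 CPM (at least 825-fold higher), the secreted protein NXPH3 with 33.3 ± 6.46 CPM (at least 748-fold), the homeobox factor DLX3 (at least 688-fold), and COL5A1, a fibrillar collagen chain with 82.9 ± 26.1 CPM and 1 read in SW948. HT55 replicate 2 was the lowest HT55 library for COL5A1, at 44.8 CPM. In SW948 the first 3 were RTN4RL1, a Nogo receptor homolog with 36.7 ± 2.07 CPM (at least 722-fold), VWDE with 28.6 ± 4.16 CPM (at least 569-fold) and the molybdenum enzyme MTARC2 with 20.9 ± 1.27 CPM (at least 412-fold). ARHGAP44 had 49.6 ± 0.473 CPM in SW948 and 1 read in HT55. Of the 34 genes of HT55, 20 lay below 1 CPM in all other 4 lines as well and 0 were above 1 CPM in all of them. Of the 33 genes of SW948, 7 lay below 1 CPM in all other 4 lines and 7 above 1 CPM in all of them, such as ARHGAP44 and MTARC2. A gene with 0 reads was not detectable at this depth.

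Levels in the other lines of the series placed these differences. Of the 4912 genes called at 2-fold, HT55 alone lay outside the range of the mean CPM of DLD1, HCT15, RKO and SW48 at 1578, SW948 alone at 1091, both at 1534 and neither at 709. Among the 9035 tested genes not called at 2-fold the figures were 1588, 1426, 2870 and 3151. No test compared these counts. These counts, and the means given for the other 4 lines, rest on 24 libraries scaled together, which differs slightly from the scale of the CPM above. TGFBI averaged at most 472 CPM and CEACAM5 at most 7.47 CPM in the other 4 lines, below both HT55 and SW948. LYZ averaged 0.866 to 1.1 CPM in them, below HT55 as well as SW948, and OLFM4 and GREM1 at most 0.0479 CPM, so that SW948 was the one line with a mean over 1 CPM for these.

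**Figure D3:**
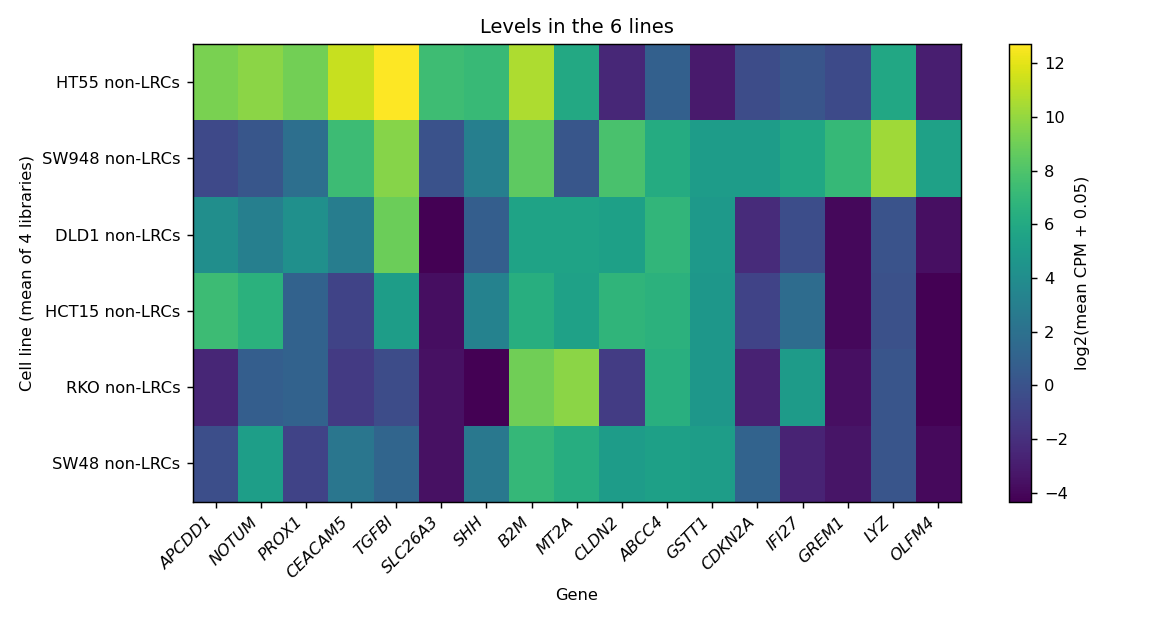
Mean CPM (log2, plus 0.05, color) of 17 genes in the non-LRCs of 6 lines, 4 libraries per line, with HT55 and SW948 on the scale of their own 8 libraries. OLFM4 and GREM1 are bright in SW948 alone, GSTT1 is dark in HT55 alone, and MT2A is dark in SW948 alone.

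The differences were spread unevenly over the chromosomes. On chromosome 11, 21.9% of the tested genes were higher in HT55, with a median log2 fold change of -0.64 and 244 calls toward SW948 against 56 toward HT55. The medians of chromosomes 15 (0.60), X (0.56), 16 (0.54), 9 (0.48) and 10 (0.39) lay at the other end. Plain library size shifted every chromosome downward with all other genes, so the order and not the sign is the measured feature. The LRC libraries of the same lines gave a median of -0.62 on chromosome 11 and 0.54 on chromosome 15. Genotypes were not measured, and the part of gene copy number in these values was not tested.

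**Figure D4:**
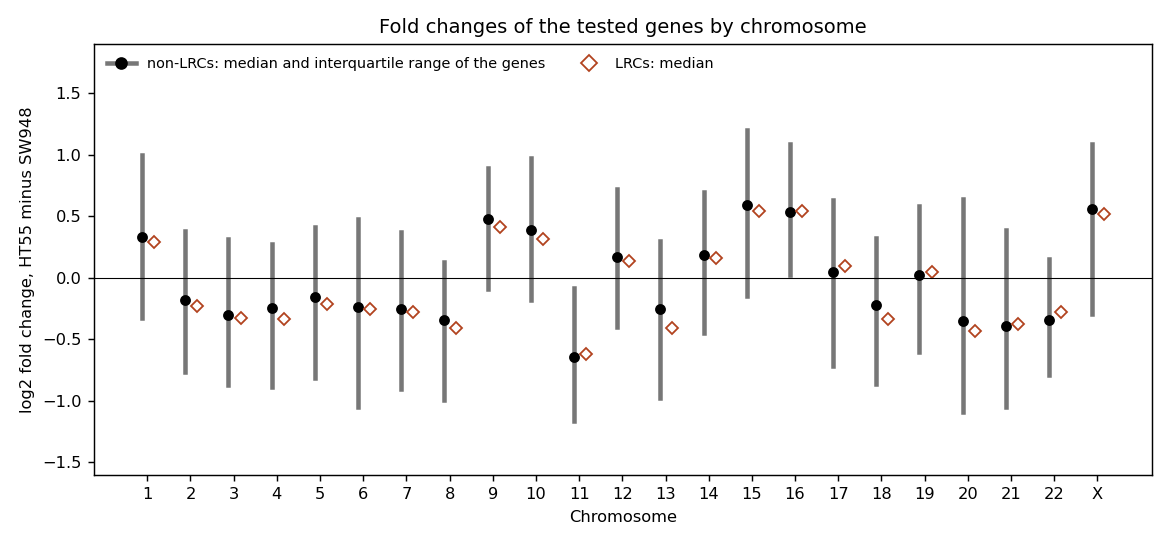
Median (black) and interquartile range (gray bar) of the log2 fold changes (HT55 minus SW948) of the tested genes on each chromosome in non-LRCs, with the median in LRCs as a diamond. Chromosome 11 is lowest at -0.64 and chromosome 15 highest at 0.60, and the diamonds lie beside the black points.

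Windows of successive tested genes showed this in more detail. Each held 50 genes, except the last of a chromosome, which held up to 95. The medians of 261 windows ran from -1.21 to 0.90, with 31 at -0.5 or lower and 41 at 0.5 or higher. The lowest window lay in the MHC region of chromosome 6 (chr6:31733367-33282061, hg19) and held HLA-DQB1 and PSMB9, both higher in SW948. There 12% of the genes were higher in HT55, and 29 of 50 were called toward SW948. HLA-B, which lies before it at chr6:31321649-31334844, went the other way, as given above.

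Most line differences were also found in LRCs. Of the 4912 genes called in non-LRCs, 4804 could be tested in the LRC libraries, 4800 had the same direction there and 4219 were also called at 2-fold. The LRC libraries are of the same 2 lines, under the same replicate numbers, and add no further line. The same agreement over all tested genes was not counted. A test of whether the difference between the lines changed with the population, over 16 libraries, called 0 of 14707 genes with edgeR's quasi-likelihood test (0%), with 1102 at an unadjusted p under 0.05. DESeq2 called 25. Neither fit paired the LRC and non-LRC libraries of the same number. With the replicate number of each line as a replicate block, which pairs them, edgeR called 39. Each of the 4 HT55 non-LRC libraries deviated most like the LRC library of its own number, which was so for 2 of 4 in SW948. The edgeR count without the block rested on single libraries. Without HT55 non-LRC replicate 2 it was 255, without SW948 LRC replicate 4 it was 110 and without SW948 non-LRC replicate 3 it was 1. The 25 genes of DESeq2 included APCDD1 (interaction 1.32 ± 0.30 on the log2 scale, DESeq2 adjusted p = 0.0143), PROX1 (1.16 ± 0.28, 0.0373), INHBB (2.32 ± 0.55, 0.0235) and the Wnt inhibitor DKK1 (5.90 ± 1.40, 0.0241), named after their values were seen. A positive interaction means that HT55 minus SW948 was higher in non-LRCs than in LRCs. For genes higher in HT55 this is a larger difference in non-LRCs, and for genes higher in SW948 a smaller one. For APCDD1 the mean was 639 CPM in HT55 non-LRCs and 679 CPM in HT55 LRCs, and it was 0.622 and 1.69 CPM in SW948. OLFM4 was more abundant in SW948 LRCs (112 CPM) than in SW948 non-LRCs (42.6 CPM) and averaged 0.0836 CPM in HT55 non-LRCs and 0.0487 CPM in HT55 LRCs.

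**Figure D5:**
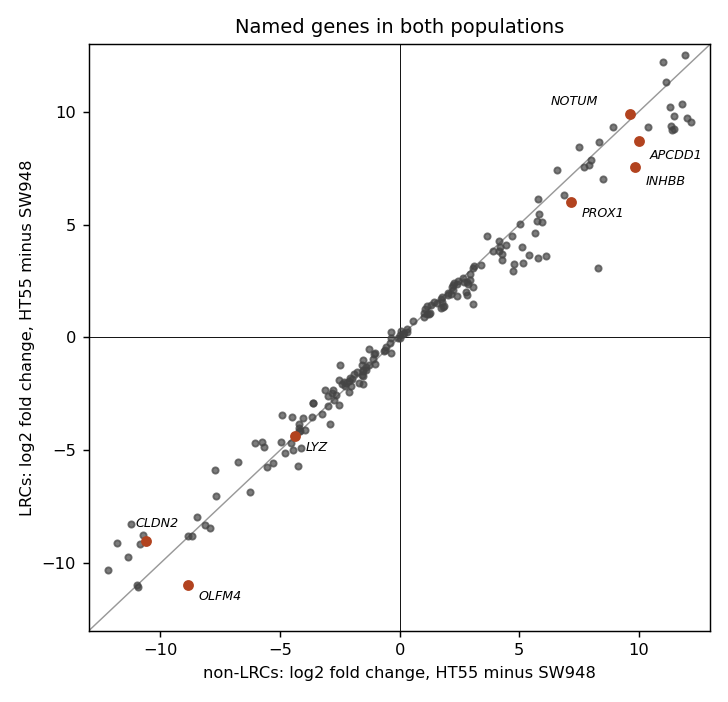
Log2 fold change (HT55 minus SW948) of 185 named genes in non-LRCs (horizontal axis) and in LRCs (vertical axis), with the line of equality. The points follow the line, 183 of 185 have the same sign in both, APCDD1, INHBB and PROX1 lie below it and OLFM4 lies below it at the lower left.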

How the data were processed

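RNA from CFSE-sorted non-LRCs of HT55 and SW948 spheroids was sequenced by the authors with TruSeq libraries and single-end reads, in experiments described as biological quadruplicates. The deposited files hold raw counts per Ensembl gene, 1 file per library, and the submitters' processing notes list TopHat, HTSeq, DESeq and hg19 without versions. Reads that align to several places or overlap 2 genes were not assigned to a gene, which makes counts of near-identical genes uncertain. Rows that name no gene were left out of library sizes. Reads outside genes came to 6.01% to 9.54% and ambiguous reads to 1.65% to 2.07% per library.

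Genes that reached 10 counts in 4 or more libraries were tested in R 4.3.3 with edgeR 4.0.16 (TMM, glmQLFit and glmQLFTest, Benjamini-Hochberg adjustment at 0.05) on the 8 libraries. SE is the log2 fold change divided by the square root of F. The call "higher" adds a fitted difference of at least 2-fold. A gene could pass the count filter through 1 line alone, and its direction was then fixed by the filter. The interaction used the 16 LRC and non-LRC libraries. CPM is TMM-scaled. Symbols and positions came from GENCODE release 44 on GRCh37 (the build named hg19), for 39260 of 54127 genes, cell cycle lists from Seurat 5.3.0 and promoter sequences from RefSeq on GRCh38.p14, using the first listed start of a gene. Named genes were, by direction, the 10 largest fold changes with at least 10 CPM and no overlap, the 5 most abundant called genes, up to 3 called members of each list with at least 1 CPM, the genes the study names and the cell type markers. The members and lists were chosen with earlier results of these data known. Alternatives were DESeq2 1.42.0, plain library size, other filters, a replicate block, all 24 non-LRC libraries, glmTreat and leaving out each library. List counts without HT55 replicate 2 were added after seeing the data. The tests were checked on simulated data in which most genes did not differ, unlike here, so the check does not cover the scaling between the lines. Counting intervals are exact at 95%. Results for some genes are not reported here.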

Additional observations from a re-analysis of the deposited data

Results flagged for a closer look

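In 25 of 289 groups of 4 libraries, the gap between the most extreme library and its nearest neighbor, as a share of the whole range, passed Dixon's limit. Chance alone passes it in about 1 group of 20. HT55 replicate 2 was the extreme library in 12 of the 25. Its share was 0.960 for SLC26A3 (445 CPM), 0.930 for FAS, 0.890 for MT-ND2, 0.882 for MT-CYB, 0.878 for both SESN2 and TGFB1, 0.873 for GRAP, 0.862 for BAMBI, 0.857 for MT-ND4, 0.839 for HOXB13, 0.833 for DLX3 and 0.832 for GPA33. In the other HT55 libraries it was 0.888 for EPCAM in replicate 4 and 0.830 for CDCA7 in replicate 1. HT55 replicate 3 gave 0.863 for CYP3A7, 0.860 for CENPU and 0.854 for ABCB1. In SW948, replicate 3 gave 0.897 for HOXB13, 0.868 for CLDN7, 0.851 for EPCAM, 0.850 for TGFB1 and 0.837 for ESRP1. SW948 replicate 2 gave 0.887 for S100A4, and replicate 4 gave 0.834 for LGR5 and 0.830 for CLDN10.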

How the results depend on the processing

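Of 2518 values of named genes under the alternatives, 2480 kept their direction and their side of the threshold. The 10746 genes called and the 4912 called at 2-fold became 10619 and 4906 with DESeq2, 10869 and 5128 with plain library size, 11311 and 5561 with all 24 non-LRC libraries, and 12333 and 6731 with no filter on low counts. Requiring 10 counts in every library gave 3248 at 2-fold, out of fewer genes tested, and a glmTreat test against 2-fold gave 3736. Leaving out 1 library gave 10392 to 11229 called and 4973 to 5159 at 2-fold. Of the 390 genes detected in 1 line, 144 had 0 reads in the other.

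With the replicate number as a replicate block, 10490 genes were called and 4905 at 2-fold. The numbers only name libraries between the lines: deviations of same-numbered HT55 and SW948 libraries correlated at -0.177 to 0.074, and 1 of 4 did best with its own number. The interaction count of 0 became 39 with the block, 25 with DESeq2, 150 with no filter on low counts and 0 to 255 when 1 of the 16 libraries was left out, and the cause was not tested.

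Small differences changed sign with plain library size, for CDX2 (-0.18), EPCAM (-0.08), VIL1 (-0.11), ESRP1 (-0.23) and SUFU (-0.23). ESRP1 also went to 0.00 with no filter or with 10 counts in every library and lay between -0.01 and 0.05 when 1 library was left out, with -0.01 without SW948 replicate 4. SUFU went to 0.00 with no filter and lay between -0.04 and 0.07 when 1 library was left out, with -0.04 without HT55 replicate 2 and -0.01 without SW948 replicate 3. Depth limits what can be said of genes with a few reads per line, such as the GLI genes.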

Other observations

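Further genes were found in 1 line only, named here after their values were seen. HT55 held the sodium channel subunits SCNN1B (46.3 CPM, 2 reads in SW948) and SCNN1G (11.7 CPM, 0 reads), which together with a further subunit form the epithelial sodium channel of the distal colon. It also held the ephrin receptor EPHA4 (78.5 CPM, 2 reads), the chemokine CXCL14 (48.8 CPM, 1 read) and the developmental transcription factors GBX2 (27.9 CPM, 3 reads) and PAX7 (15.0 CPM, 2 reads). SW948 held the scaffold protein IQGAP2 (74.9 CPM, 3 reads in HT55), the ciliary transcription factor FOXJ1 (36.0 CPM, 3 reads), the TGF-beta co-receptor ENG (23.7 CPM, 1 read) and the leukotriene enzyme ALOX5 (12.1 CPM, 0 reads). SCNN1G, GBX2 and PAX7 were listed at 0 CPM in all of DLD1, HCT15, RKO and SW48. ENG, in contrast, averaged 35.1 CPM in SW48.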
